A study of Mus musculus with 23 samples.

Results

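The genes described here are the semaphorins, ephrins, slits and netrins, which are secreted or membrane-bound guidance cues, together with their plexin, neuropilin, Eph, Robo, Unc5 and Dcc receptors. They were picked by gene symbol from the annotation of the array platform, not by any measured value, and a gene with several probe sets is given by the one whose mean over the 23 arrays was highest. Of the 61 genes whose symbol matched, 49 were kept because that probe set reached a log2 value of at least 4 on at least 4 arrays, out of 9197 genes that passed the same filter. Among the 49 were 25 ligands and 22 receptors. The other two, Slitrk1, a synaptic adhesion protein, and Unc50, a Golgi protein, matched the letters of the rule but are neither slits nor Unc5 receptors.

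RNA came from the prefrontal cortex of male wild-type C57BL/6 mice at postnatal weeks 2, 3, 4, 5 and 10, with 6, 4, 4, 5 and 4 animals and 1 Affymetrix MOE430A array per animal. No treatment or altered genotype was involved, and the animals came from timed matings within 1 colony. The prefrontal cortex was taken with a single coronal cut near the front of the brain, so the piece could hold neighbouring tissue. Levels are log2 GCRMA values, and a change between ages is a difference of log2 values, so that a change of 1 is 2-fold.

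Guidance cues steer growing axons and dendrites by attraction or repulsion. Semaphorins act through plexins, the secreted class with neuropilins as co-receptors. Ephrins sit on cell membranes, the A class by a lipid anchor and the B class by a transmembrane segment, and bind Eph receptor tyrosine kinases on the neighbouring cell. Slits act through Robo receptors, and netrins through Dcc and the Unc5 receptors. In the postnatal cortex many of the same molecules are known for roles in synapse formation and pruning, in myelinating cells and in blood vessels.

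Age, scan day and batch were entangled. Of the 23 animals 4 were in batch 2, as pairs from weeks 2 and 5, and 19 were in batch 1. Scan day 6 held the week 3 arrays and nothing else, while day 5 held the week 4 arrays and 1 array of week 5. Day 7 held both week 2 arrays of batch 2, and weeks 10 and 2 met only on day 4, with 1 array each. Another chip lot was used on day 1, for week 10 animal 1 and week 5 batch 1 animal 2. The log2 medians of the arrays lay between 6.15 and 6.27, and the number of arrays limits the precision. The difference between the 3 prime and 5 prime actin probe sets, which grows as RNA degrades, averaged 2.07 ± 0.38 at week 4 (SD, n = 4), against 1.18 ± 0.08 at week 3 (SD, n = 4). For Gapdh the same difference was 0.08, 0.36, 0.24 and 0.07 in the week 4 animals. In those of week 3 it was 0.23, 0.08, 0.21 and 0.32. The Gapdh difference was highest in week 10 animal 1, at 0.75, and week 5 batch 1 animal 2, at 0.48, the arrays of the other chip lot. Of 6 listed markers of excitatory neurons 3 were measured, with a log2 summed level of 11.72 to 12.61 at week 10 and 12.52 to 12.90 at week 2. Pituitary hormone genes, Gh and Prl, summed to 15.75 on the array of week 4 animal 2, against 6.10 to 7.57 on the other week 4 arrays. At week 10 the sums were 9.02 in animal 1, 7.42 in animal 7 and 5.43 in animals 6 and 8, against 5.22 to 5.85 at week 2. The part of that tissue in the changes was not tested. The 6 measured striatal markers summed to between 11.60 and 13.33 at week 10 and between 11.47 and 12.86 at week 2. Their widest spread was at week 5, from 10.18 to 13.08, with the lowest sums in animals 7 and 2 of batch 1.

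Between week 10 and week 2, the widest span, 11 of the 49 genes passed the test (limma, adjusted p under 0.05 over all probe sets), 22.4% against a background of 18.5% of all genes. With a random block of scan day added to the batch term 6 of the 11 passed, Sema5a, Sema4d, Efnb2, Robo1, Plxnd1 and Epha7. With a fixed scan day term, fitted without the week 3 arrays, 0 of the 11 passed. Over all probe sets 2748 were called in the fit with age and batch, 2388 with the random block and 1523 with the fixed term. Lower at week 10 were 9 genes, which is 18.4% of the 49 against 11.4% of all genes, and they came from the semaphorins, plexins, B ephrins, Eph receptors and Robos. Higher at week 10 were 2 receptors, Epha7 and Dcc, or 4.08% against 7.12% of all genes. Fitted changes allow for batch, so they can differ from the difference of the age means. The share of calls lay near the background, and the split between lower and higher was not tested. The median change of the 49 genes was -0.11, against 0.01 over all genes. In 35 of the 49 the fitted change was below 0, 71.4% against 49.1% of all genes, and most of these did not pass the test. In bulk tissue, fewer cells of a type and less RNA per cell cannot be told apart.

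**Figure D1:**
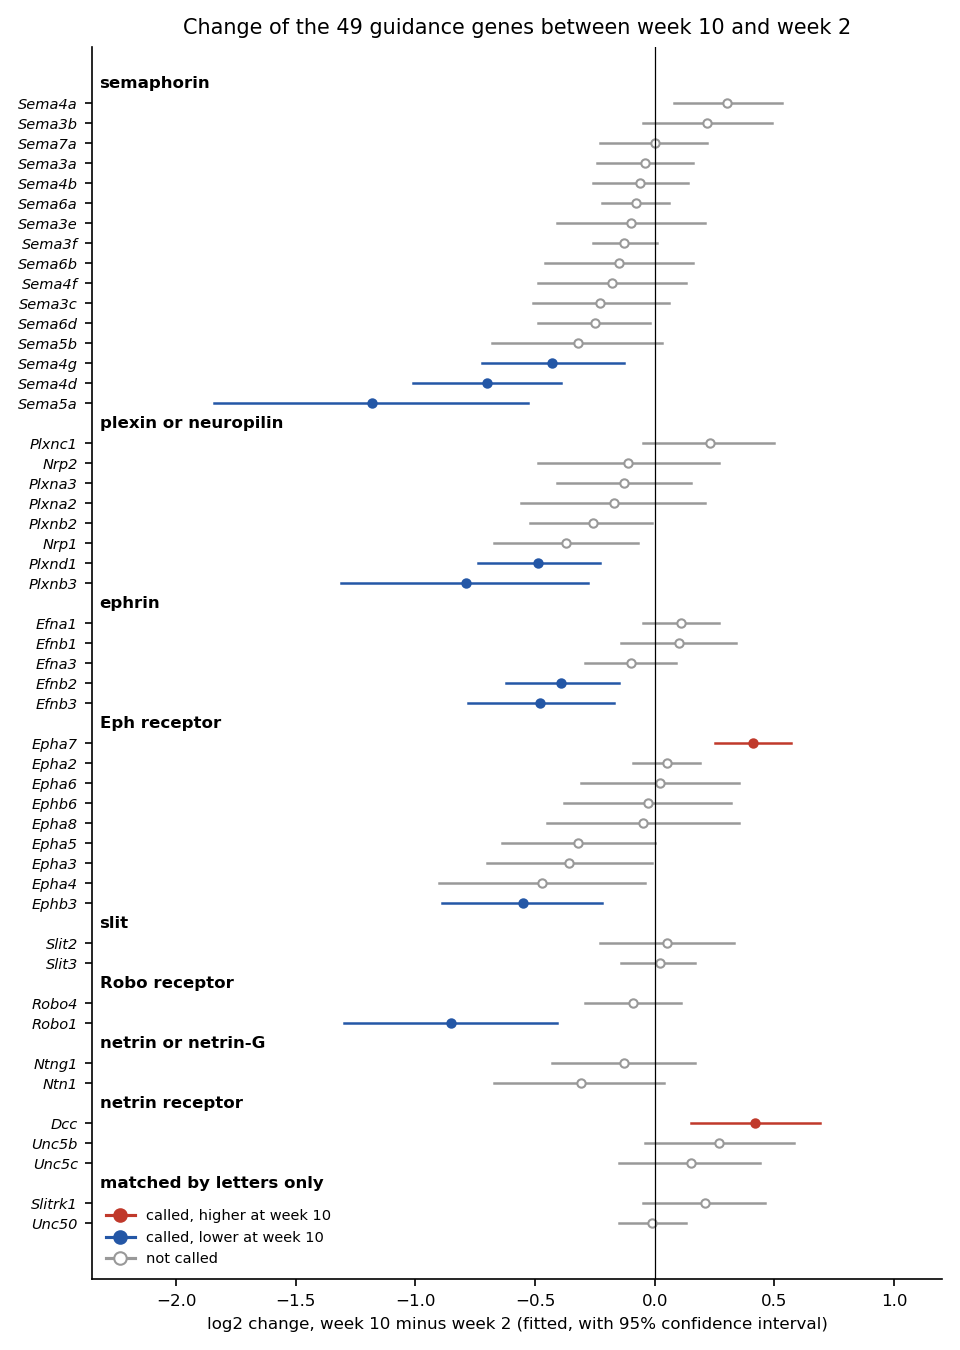
Fitted log2 change of the 49 guidance genes at week 10 against week 2, grouped by family, with 95% intervals; coloured points passed the test. The points that passed lie between -1.18 for Sema5a and 0.42 for Dcc.

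Among the ligands, 3 semaphorins and 2 ephrins fell and none rose. Sema5a, a transmembrane semaphorin with thrombospondin repeats, had the largest change of the 49 genes over this span. Its log2 level at week 2 had a lowest value of 5.44, a median of 5.78 and a highest of 6.63, and the week 3 animals gave 5.64, 5.47, 5.26 and 5.48. The week 4 animals gave 5.46, 5.63, 5.59 and 5.92, those of week 5 gave 5.15, 5.14, 5.47, 5.40 and 5.39, and those of week 10 gave 4.79, 3.22, 5.45 and 5.37. Most of the week 10 spread came from animal 6, whose 3.22 stood below the filter value, while animal 7 overlapped the lowest week 2 animal. Week 10 animals averaged 4.71 ± 1.03 (SD, n = 4), against 5.83 ± 0.43 for week 2 (SD, n = 6), a fitted change of -1.18 (SE 0.31), 2.27-fold lower (adjusted p = 0.0125).

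At week 10 the animals with the lower Sema5a levels also had the higher striatal marker sums, 13.33 and 13.18 in animals 1 and 6, against 11.65 and 11.60 in animals 7 and 8. The same 2 animals were the lowest of week 10 for Sema4d, Ephb3 and Plxnd1, whereas for Robo1 animal 1 was the highest of week 10 and animal 6 the lowest. For Efnb2 animal 1 was also the highest. The lowest of week 10 was animal 8 for Efnb2, Efnb3 and Plxnb3, and animal 7 for Sema4g. At week 2 the lowest striatal sums were 11.47 and 11.50, in animals 2 and 6, whose Sema5a levels were 5.75 and 5.85. With the striatal marker sum as a covariate, an alternative added after seeing the data, 11 genes passed for week 10 against week 2, 10 of them the same, and the Sema5a change was -1.14 (adjusted p = 0.0163). Over all probe sets 2853 were called with this covariate, against 2748 without it. The part of striatal tissue in the changes was not tested. The 250 bases before the Sema5a start of the RefSeq promoter table are printed first below, followed by those before the listed starts of 3 receptors with calls that held without any single array, Robo1 and Plxnd1, which fell, and Epha7, which rose. The sequences are those of RefSeq on GRCm38.p6, written along the gene.

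Sema5a, chr15:32244563-32244812, plus strand: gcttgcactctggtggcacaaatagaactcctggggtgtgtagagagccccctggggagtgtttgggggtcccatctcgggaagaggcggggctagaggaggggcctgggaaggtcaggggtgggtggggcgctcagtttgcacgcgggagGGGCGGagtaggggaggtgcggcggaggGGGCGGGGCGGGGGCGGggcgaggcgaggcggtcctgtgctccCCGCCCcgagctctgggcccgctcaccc
Robo1, chr16:72662899-72663148, plus strand: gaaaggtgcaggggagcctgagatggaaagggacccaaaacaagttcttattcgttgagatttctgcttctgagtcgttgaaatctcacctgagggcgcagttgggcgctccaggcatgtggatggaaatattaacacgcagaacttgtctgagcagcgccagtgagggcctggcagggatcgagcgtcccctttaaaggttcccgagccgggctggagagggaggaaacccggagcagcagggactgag
Plxnd1, chr6:115995006-115995255, minus strand: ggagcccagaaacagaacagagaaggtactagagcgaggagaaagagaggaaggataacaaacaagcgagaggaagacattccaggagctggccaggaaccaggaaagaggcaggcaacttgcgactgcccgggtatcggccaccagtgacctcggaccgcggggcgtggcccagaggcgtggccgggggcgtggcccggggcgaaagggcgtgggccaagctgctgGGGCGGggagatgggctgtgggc
Epha7, chr4:28812881-28813130, plus strand: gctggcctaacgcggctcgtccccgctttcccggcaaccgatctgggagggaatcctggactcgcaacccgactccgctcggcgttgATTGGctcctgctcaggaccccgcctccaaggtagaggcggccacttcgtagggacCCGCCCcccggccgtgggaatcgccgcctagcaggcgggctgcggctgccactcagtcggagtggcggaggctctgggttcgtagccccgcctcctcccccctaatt

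Capitals mark matches, on either strand, to 4 short motifs: the TATA box, with the letters TATAAA, the CCAAT box, with the letters CCAAT, the GC box, with the letters GGGCGG, and the E-box, with the letters CACGTG. Sema5a held 5 GC boxes, some of them overlapping, Plxnd1 held 1, Epha7 held 1 and a CCAAT match on the other strand, and Robo1 held none of the 4. Over all 32851 promoters of the table, 32.7% held a GC box, 33.8% a CCAAT match, 12.4% a TATAAA and 6.02% the E-box in the same window. The GC content was 72.0% for Sema5a, 56.0% for Robo1, 64.8% for Plxnd1 and 69.2% for Epha7, against a median of 52.4% over all promoters. Epha7 has 2 starts in the table, and the window of the first is printed. The Sema5a start is the outer end of the gene in the RefSeq annotation. Those of Epha7 and Plxnd1 lie 65 and 334 bases inside the annotated gene, and that of Robo1 is an internal start, 636 kb inside a gene annotated at chr16:72027518-73047491.

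Sema4d, a transmembrane semaphorin that binds B-class plexins and is known from oligodendrocytes, had a week 2 range of 7.34 to 8.0 with a median of 7.62. The week 3 animals gave 7.37, 7.54, 7.59 and 7.28, and those of week 4 gave 7.34, 7.35, 7.38 and 7.24. Week 5 gave 7.09, 7.62, 6.97, 7.22 and 7.09, and week 10 gave 6.91, 6.61, 7.26 and 7.12. No week 10 animal reached the lowest week 2 animal. The average over the week 10 animals was 6.98 ± 0.28 (SD, n = 4), and that of week 2 was 7.64 ± 0.27 (SD, n = 6), a change of -0.70 (SE 0.15), 1.62-fold lower (adjusted p = 0.00249). Both other tested probe sets of Sema4d were also called lower, with changes of -0.38 (adjusted p = 0.0363) and -0.85 (adjusted p = 0.000729).

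Sema4g, another transmembrane class 4 semaphorin, lay between 7.53 and 8.14 at week 2, with a median of 7.85. It gave 7.51, 7.48, 7.81 and 7.89 at week 3, 7.42, 8.24, 7.53 and 7.48 at week 4, and 7.34, 7.45, 7.43, 7.50 and 7.18 at week 5. Week 10 gave 7.42, 7.45, 7.23 and 7.46, all below every week 2 animal. The highest Sema4g value of all arrays was that of week 4 animal 2, the array with the high pituitary sum; the part of that tissue in it was not tested. On average, the level was 7.39 ± 0.11 in week 10 animals (SD, n = 4), against 7.86 ± 0.20 in week 2 animals (SD, n = 6), a change of -0.43 (SE 0.14, adjusted p = 0.0456). The random block of scan day gave -0.44, which did not pass (adjusted p = 0.0787). The call was the weakest of the 11: it was kept in 9 of the 23 fits that left out 1 array.

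Efnb3, a transmembrane ephrin known as a midline repellent of the spinal cord, was between 8.80 and 9.50 at week 2, with a median of 8.96. Week 3 gave 8.81, 8.87, 8.78 and 8.84, and week 4 gave 9.33, 9.17, 8.62 and 8.75. Week 5 gave 8.12, 8.88, 8.49, 7.93 and 8.19, and week 10 gave 8.49, 8.48, 8.57 and 8.11. The week 10 animals lay below all week 2 animals, while at week 5 only animal 2 of batch 2, at 8.88, lay above the lowest week 2 animal. Week 10 animals averaged 8.41 ± 0.21 (SD, n = 4), against 9.03 ± 0.25 for week 2 (SD, n = 6), with a change of -0.48 (SE 0.15, adjusted p = 0.0283). With the random block of scan day it was -0.46 and did not pass (adjusted p = 0.0574).

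Efnb2, the transmembrane ephrin that marks arterial endothelium, was between 8.54 and 9.10 at week 2, with a median of 8.75. Week 3 gave 8.79, 8.56, 8.64 and 8.71, week 4 gave 8.58, 8.59, 8.43 and 8.52, and week 5 gave 8.77, 8.58, 8.44, 8.54 and 8.58. Week 10 gave 8.76, 8.31, 8.37 and 8.18, so animal 1 overlapped week 2 and the other week 10 animals did not. The level averaged 8.41 ± 0.25 over the week 10 animals (SD, n = 4) and 8.75 ± 0.21 over those of week 2 (SD, n = 6). The change was -0.39 (SE 0.11, adjusted p = 0.0207), and a second Efnb2 probe set was called as well, with -0.53 (adjusted p = 0.00133), while its other two were not called, with -0.74 (adjusted p = 0.0942) and -0.13 (adjusted p = 0.70).

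The 13 other semaphorins that were kept were not called for week 10 against week 2. Their changes lay between -0.32 for Sema5b and 0.30 for Sema4a (SE 0.11, adjusted p = 0.0578). Slit2 and Slit3, the ligands of the Robos, had changes of 0.05 (95% interval -0.23 to 0.33) and 0.02 (95% interval -0.14 to 0.17). For Ntn1, the secreted netrin, the change was -0.31 (95% interval -0.67 to 0.04), and for Ntng1, a lipid-anchored relative at synapses, -0.13 (95% interval -0.43 to 0.17). These intervals bound the changes and do not show that the levels stayed the same.

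Among the receptors, 4 fell and 2 rose. Robo1, the slit receptor, was between 7.72 and 8.72 at week 2, with a median of 8.40. The week 3 animals gave 8.11, 8.22, 8.04 and 7.82, week 4 gave 7.89, 7.77, 7.30 and 8.02, and week 5 gave 7.88, 7.95, 7.74, 7.84 and 7.62. Week 10 gave 8.31, 7.07, 7.32 and 7.32. The groups overlapped through week 10 animal 1, which was of the other chip lot, and week 2 animal 6, which was the lowest of its age. The average over the week 10 animals was 7.50 ± 0.55 (SD, n = 4), and that of week 2 was 8.37 ± 0.35 (SD, n = 6), a change of -0.85 (SE 0.22), 1.81-fold lower (adjusted p = 0.00863). Without scan day 1, and so without that chip lot, the change was -1.12 (adjusted p = 0.000432). Robo4, the endothelial member of the family, was not called, with -0.09 (95% interval -0.29 to 0.11).

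Plxnd1, the receptor of Sema3e in vessels and neurons, was between 8.79 and 9.25 at week 2, with a median of 9.06. Week 3 gave 8.64, 8.77, 9.04 and 8.94, week 4 gave 8.83, 9.04, 8.83 and 8.76, and week 5 gave 8.71, 8.81, 8.70, 8.94 and 8.41. Week 10 gave 8.45, 8.31, 8.80 and 8.64, of which only animal 7 reached the lowest week 2 animal. On average, the level was 8.55 ± 0.22 in week 10 animals (SD, n = 4), against 9.06 ± 0.17 in week 2 animals (SD, n = 6), a change of -0.49 (SE 0.12), 1.40-fold lower (adjusted p = 0.0083). Its ligand Sema3e was not called, with -0.10 (95% interval -0.41 to 0.21).

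Plxnb3, a B-class plexin found in the oligodendrocyte lineage, was between 5.70 and 6.81 at week 2, with a median of 6.14. Week 3 gave 5.69, 5.50, 6.50 and 5.95, week 4 gave 5.87, 5.81, 5.21 and 5.12, and week 5 gave 5.07, 5.78, 5.70, 5.00 and 5.36. Week 10 gave 5.38, 5.36, 5.53 and 5.15, all below every week 2 animal. Week 10 animals averaged 5.35 ± 0.15 (SD, n = 4), against 6.20 ± 0.46 for week 2 (SD, n = 6), with a change of -0.79 (SE 0.25, adjusted p = 0.0307). Without scan day 1 the change was -0.82 and no longer passed (adjusted p = 0.056), and with the random block of scan day it was -0.63 (adjusted p = 0.119).

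Ephb3, a receptor of the B ephrins, was between 7.21 and 7.62 at week 2, with a median of 7.36. Week 3 gave 7.17, 6.97, 6.84 and 7.36, week 4 gave 6.89, 6.93, 7.23 and 6.95, and week 5 gave 7.10, 6.99, 7.17, 6.80 and 6.99. Week 10 gave 6.08, 6.79, 6.97 and 7.21, where animal 1, of the other chip lot, was lowest and animal 8 touched the week 2 range. The level averaged 6.76 ± 0.49 over the week 10 animals (SD, n = 4) and 7.37 ± 0.16 over those of week 2 (SD, n = 6). The change was -0.55 (SE 0.16, adjusted p = 0.0218), and without scan day 1 it was -0.32 and did not pass (adjusted p = 0.0949). With the random block of scan day it was -0.51 (adjusted p = 0.0564).

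Markers of several cell types fell over the same span as these 9 genes, and those of others did not. The background was 11.4% of all genes lower and 7.12% higher. Of the 6 measured markers of oligodendrocyte precursors 4 were lower at week 10, with summed levels of 10.56 to 10.86 at week 10 and 11.12 to 11.51 at week 2. Of the 8 endothelial markers 6 were lower, with 10.57 to 10.83 at week 10 and 11.05 to 11.35 at week 2. All 8 immature neuron markers were lower, with 13.09 to 13.33 at week 10 and 14.31 to 14.81 at week 2. Of the 6 measured markers of meninges and fibroblasts 5 were lower, with 8.86 to 9.49 at week 10 and 10.55 to 11.19 at week 2. Oligodendrocyte markers, of which 7 were measured, had 1 higher and none lower, and their sums overlapped, 15.08 to 15.34 at week 10 and 15.08 to 15.67 at week 2. Their median change was -0.40. Of the 3 measured markers of excitatory neurons 1 was lower and none higher, with a median change of -0.46. Of the 6 interneuron markers 2 were higher and none lower. Their sums were 13.07 to 13.39 at week 10 and 12.47 to 12.93 at week 2. Of the 8 astrocyte markers 3 were lower and 1 higher, and of the 8 microglial markers 1 was lower and 1 higher. Of the 6 measured markers of pericytes and mural cells 2 were lower. The part of these cell types in the changes was not tested.

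**Figure D2:**
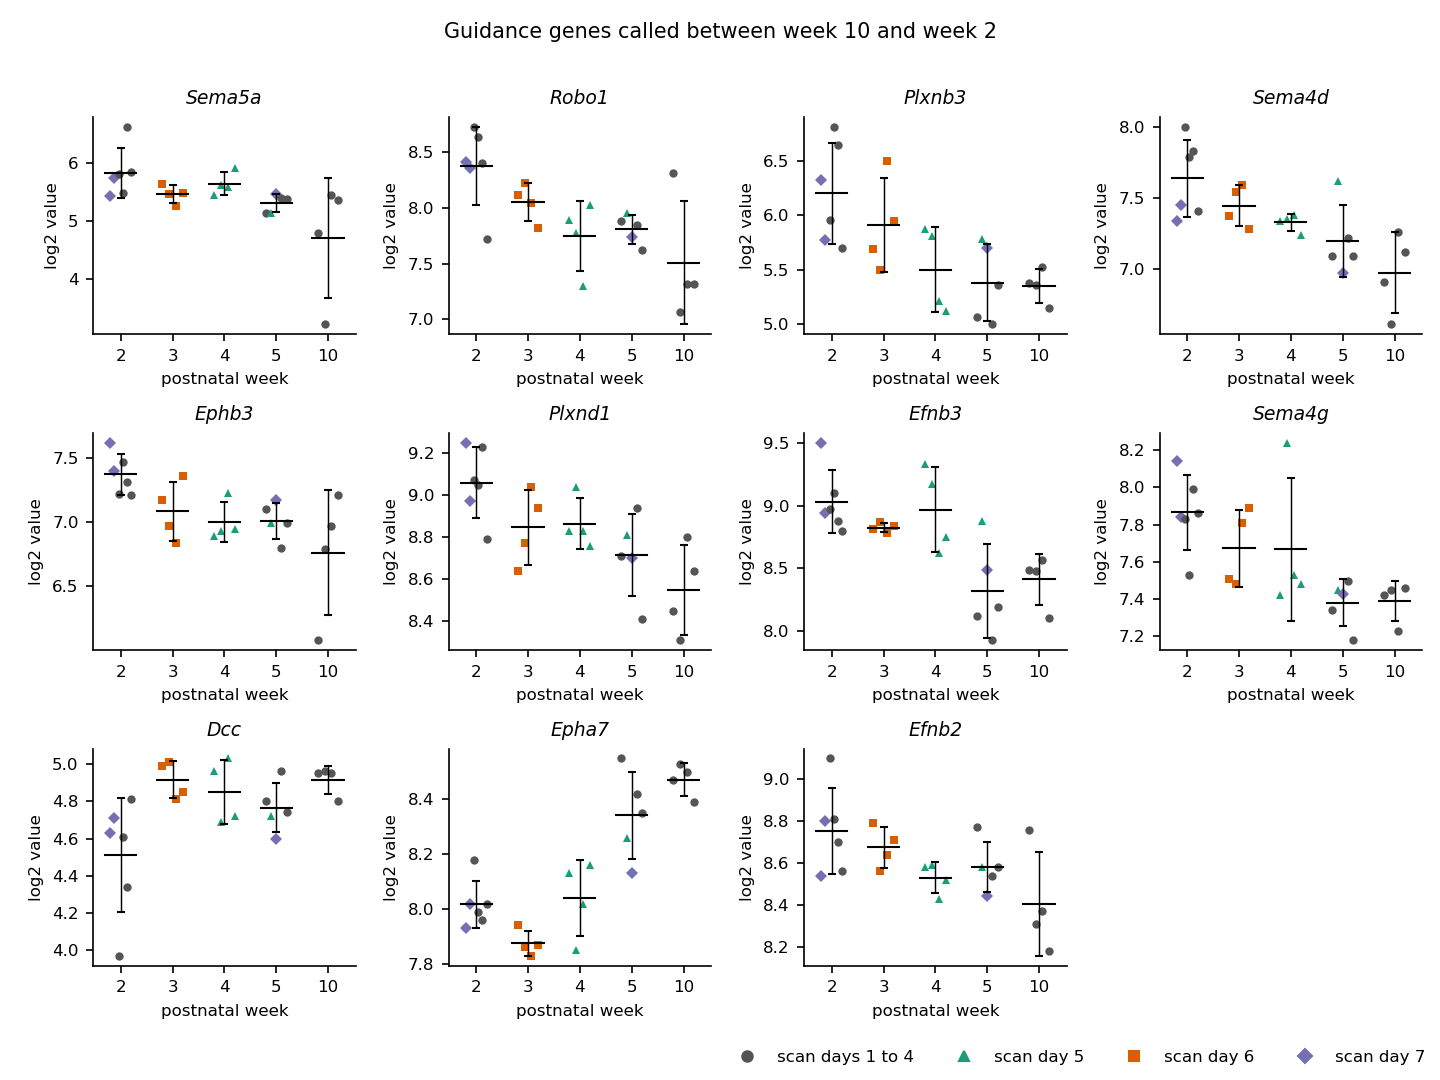
Log2 level of every animal for the 11 genes called at week 10 against week 2, by postnatal week, with horizontal bars at the age means, error bars of 1 SD and marker shapes for the scan day. Of these, Epha7 lies higher at week 10 and Sema4d, Sema4g, Efnb3 and Plxnb3 lie lower with no overlap with week 2.

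Epha7, a receptor of the A ephrins that shapes cortical maps and dendrites, had the smallest adjusted p of the 49 genes at week 10 against week 2. It was between 7.93 and 8.18 at week 2, with a median of 8.0. Week 3 gave 7.94, 7.86, 7.83 and 7.87, week 4 gave 8.13, 7.85, 8.02 and 8.16, and week 5 gave 8.55, 8.26, 8.13, 8.42 and 8.35. Week 10 gave 8.47, 8.53, 8.50 and 8.39, all above every animal of weeks 2, 3 and 4. The average over the week 10 animals was 8.47 ± 0.06 (SD, n = 4), and that of week 2 was 8.02 ± 0.09 (SD, n = 6), a change of 0.41 (SE 0.08), 1.33-fold higher (adjusted p = 0.000649). The other Epha7 probe sets did not pass, with 0.31 (adjusted p = 0.143) and 0.08 (adjusted p = 0.815), and with the mean of all probe sets of the gene the change was 0.27 (adjusted p = 0.0729). One of them also differed in the timing: at week 3 against week 2 it rose by 1.07 (adjusted p = 0.0017), where the representative changed by -0.19 (adjusted p = 0.0874).

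Dcc, the netrin receptor that mediates attraction, gave low levels, between 3.97 and 4.81 at week 2 with a median of 4.62. Week 3 gave 4.99, 5.01, 4.81 and 4.85, week 4 gave 4.96, 4.69, 5.03 and 4.72, week 5 gave 4.80, 4.72, 4.60, 4.96 and 4.74, and week 10 gave 4.95, 4.96, 4.95 and 4.80. Week 2 animal 3, at 3.97, was lowest of all, and week 10 animal 8 overlapped the highest week 2 animal. On average, the level was 4.92 ± 0.08 in week 10 animals (SD, n = 4), against 4.51 ± 0.31 in week 2 animals (SD, n = 6), a change of 0.42 (SE 0.13, adjusted p = 0.0314). Under the random block of scan day the change was 0.30 and did not pass (adjusted p = 0.164), and under the fixed scan day term it was 0.03 (adjusted p = 0.97). Without week 2 animal 3 the call was lost, as it was without week 2 animal 5 and without week 10 animal 1, 6 or 7. The other netrin receptors, Unc5b and Unc5c, had changes of 0.27 (SE 0.15, adjusted p = 0.228) and 0.15 (SE 0.14, adjusted p = 0.516).

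No animal overlapped between week 10 and week 2 for 6 of the 49 genes, 12.2% against 15.8% of all genes. They were Sema4d, Sema4g, Efnb3, Plxnb3, Epha7 and Nrp1, the co-receptor of secreted semaphorins, whose change of -0.37 did not pass (adjusted p = 0.087). Within batch 1 alone, with 4 animals of each age, 10 genes were called, each of them among the 11. Over all probe sets 2719 were called in batch 1 alone, against 2748 in the fit of all 23 arrays. Without scan day 1, 8 were called, 7 of them among the 11, with 2203 called over all probe sets. On scan day 4, with 1 animal of each age, 9 of the 11 genes had the direction of the fit, Sema5a with 5.37 at week 10 and 5.85 at week 2, and Epha7 with 8.39 at week 10 and 8.02 at week 2. Ephb3 and Dcc showed no difference there. The arrays of that day were also part of the fit that chose the 11 genes, so these directions are not a separate check.

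Week 3 against week 2 asks what changed first, and it shares the week 2 arrays with the comparison above. Only receptors passed, 4 of the 49 genes, which is 8.16% against a background of 15.2%. Epha3, Unc5b and Dcc were higher at week 3, and Epha5 was lower. Dcc had the same change as at week 10, 0.42 (SE 0.13, adjusted p = 0.0348). All week 3 arrays shared a scan day with no other age, so age and scan day cannot be told apart in this comparison, and with scan day as a random block none of the 4 passed. Over all probe sets 597 were called with that block beside batch and 112 in place of it, against 2570 with batch alone.

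Epha5, a receptor of the A ephrins found in cortical neurons, was between 9.48 and 10.13 at week 2, with a median of 9.71. Week 3 gave 8.96, 8.94, 9.53 and 9.59, week 4 gave 9.51, 9.68, 9.69 and 9.55, week 5 gave 9.85, 9.45, 9.04, 9.61 and 9.24, and week 10 gave 9.70, 9.46, 9.79 and 9.36. At week 3 animals 2 and 3 were low and the other two were within the week 2 range. Week 3 animals averaged 9.26 ± 0.36 (SD, n = 4), against 9.77 ± 0.29 for week 2 (SD, n = 6), a change of -0.65 (SE 0.15), 1.56-fold lower (adjusted p = 0.00767). Epha5 was also lowest on scan day 7 within an age: the 2 week 2 animals of that day had 9.48 and 9.49, against 9.71 to 10.13 on the other days, and the week 5 animal of that day had 9.04, the lowest of week 5. The week 2 animals of that day were those of batch 2, and the rest of week 2 were of batch 1. When the batch term was replaced by one for days 6 and 7 together, the change was -0.21 and did not pass (adjusted p = 0.512).

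Unc5b, a netrin receptor of repulsion also known from endothelium, was between 5.24 and 5.62 at week 2, with a median of 5.42. Week 3 gave 5.92, 5.91, 5.75 and 5.80, week 4 gave 5.96, 6.64, 5.81 and 5.62, week 5 gave 5.77, 5.70, 5.73, 5.70 and 5.46, and week 10 gave 5.95, 5.70, 5.62 and 5.39. All week 3 animals were above every week 2 animal. The highest value, 6.64, was again on the array of week 4 animal 2 with the high pituitary sum, which is not in this comparison. The average over the week 3 animals was 5.84 ± 0.08 (SD, n = 4), and that of week 2 was 5.43 ± 0.15 (SD, n = 6), a change of 0.45 (SE 0.15, adjusted p = 0.044), and the call was kept in 10 of the 23 fits that left out 1 array.

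Epha3, another receptor of the A ephrins, was between 4.74 and 5.89 at week 2, with a median of 5.16. Week 3 gave 5.67, 5.35, 5.88 and 5.81, week 4 gave 4.70, 4.45, 4.89 and 4.56, week 5 gave 4.67, 4.62, 5.34, 4.88 and 4.72, and week 10 gave 4.73, 4.80, 4.62 and 4.62. The week 3 animals and the 2 batch 2 animals of week 2 were the high ones. On average, the level was 5.68 ± 0.23 in week 3 animals (SD, n = 4), against 5.22 ± 0.48 in week 2 animals (SD, n = 6), a change of 0.63 (SE 0.17, adjusted p = 0.0137). The other tested Epha3 probe set went the opposite way, with -0.25 (adjusted p = 0.267), and with the mean of the gene's probe sets the change was 0.19 and did not pass (adjusted p = 0.373). With no batch term the change was 0.46 and did not pass either (adjusted p = 0.127).

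At week 4 against week 3, which shares the week 3 arrays with that comparison, 3 receptors were lower and no gene was higher, 6.12% against a background of 9.73% called in either direction and 4.26% called lower. They were Epha3, Epha4 and Plxna2. Epha3 had a change of -1.03 (SE 0.17), 2.04-fold lower (adjusted p = 0.000429), with a mean of 4.65 ± 0.19 (SD, n = 4) at week 4 and no overlap with week 3. A second Epha3 probe set, near the filter value, had -0.19 and did not pass (adjusted p = 0.497).

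Epha4, which binds both ephrin classes and is known from dendritic spines, was between 9.08 and 10.51 at week 2, with a median of 9.58. Week 3 gave 9.82, 9.78, 9.72 and 9.73, week 4 gave 8.84, 8.39, 8.93 and 9.10, week 5 gave 9.22, 8.91, 10.05, 9.37 and 9.15, and week 10 gave 8.69, 9.10, 8.98 and 9.47. Every week 4 animal was below every week 3 animal. Week 4 animals averaged 8.81 ± 0.30 (SD, n = 4), against 9.76 ± 0.05 for week 3 (SD, n = 4), a change of -0.95 (SE 0.22), 1.93-fold lower (adjusted p = 0.00599). Its second probe set was called too, with -1.81 (adjusted p = 0.000576).

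Plxna2, an A-class plexin for transmembrane class 6 semaphorins, was between 8.24 and 9.39 at week 2, with a median of 8.37. Week 3 gave 8.66, 8.86, 8.75 and 8.69, week 4 gave 8.03, 7.56, 8.10 and 7.91, week 5 gave 8.36, 7.84, 9.03, 8.19 and 8.34, and week 10 gave 8.19, 8.21, 8.33 and 8.37. The week 4 animals lay below all week 3 animals. The average over the week 4 animals was 7.90 ± 0.24 (SD, n = 4), and that of week 3 was 8.74 ± 0.09 (SD, n = 4), a change of -0.84 (SE 0.19), 1.79-fold lower (adjusted p = 0.00653). Without week 4 animal 2, the array with pituitary genes, the changes were -0.96 for Epha3 (adjusted p = 0.00276), -0.81 for Epha4 (adjusted p = 0.031) and -0.73 for Plxna2 (adjusted p = 0.0326).

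The levels of the 3 receptors also differed between scan days inside an age. At week 2, day 7 held the batch 2 animals and the other days the batch 1 animals. Scan day and batch cannot be told apart there. At week 2, Epha4 averaged 10.40 on scan day 7 and 9.41 on the other days, Plxna2 9.33 on day 7 and 8.31 on the others, and Epha3 5.74 on day 7 and 4.96 on the others. At week 5 the array of day 7 gave 10.05 for Epha4, 9.03 for Plxna2 and 5.34 for Epha3, against 8.91, 7.84 and 4.62 on that of day 5, both being batch 2 animals. With scan days 6 and 7 as 1 term the week 4 against week 3 change was 0.01 for Epha4 (adjusted p = 0.999), 0.11 for Plxna2 (adjusted p = 0.912) and -0.31 for Epha3 (adjusted p = 0.762), and the week 3 against week 2 change of Epha3 was -0.02 (adjusted p = 0.951). With the actin difference as a covariate, which was highest at week 4, none of the 3 passed, with -0.12, -0.36 and -0.82 in the same order. That covariate left 0 of all probe sets called at week 4 against week 3, against 1839 in the fit with age and batch. With a random block of scan day added to the batch term, the changes were -0.74 for Epha4 (adjusted p = 0.319), -0.62 for Plxna2 (adjusted p = 0.358) and -0.90 for Epha3 (adjusted p = 0.0611). Over all probe sets, 191 were called with this block and 2 with scan days 6 and 7 as 1 term. Most calls of the whole array were thus lost along with these 3.

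**Figure D3:**
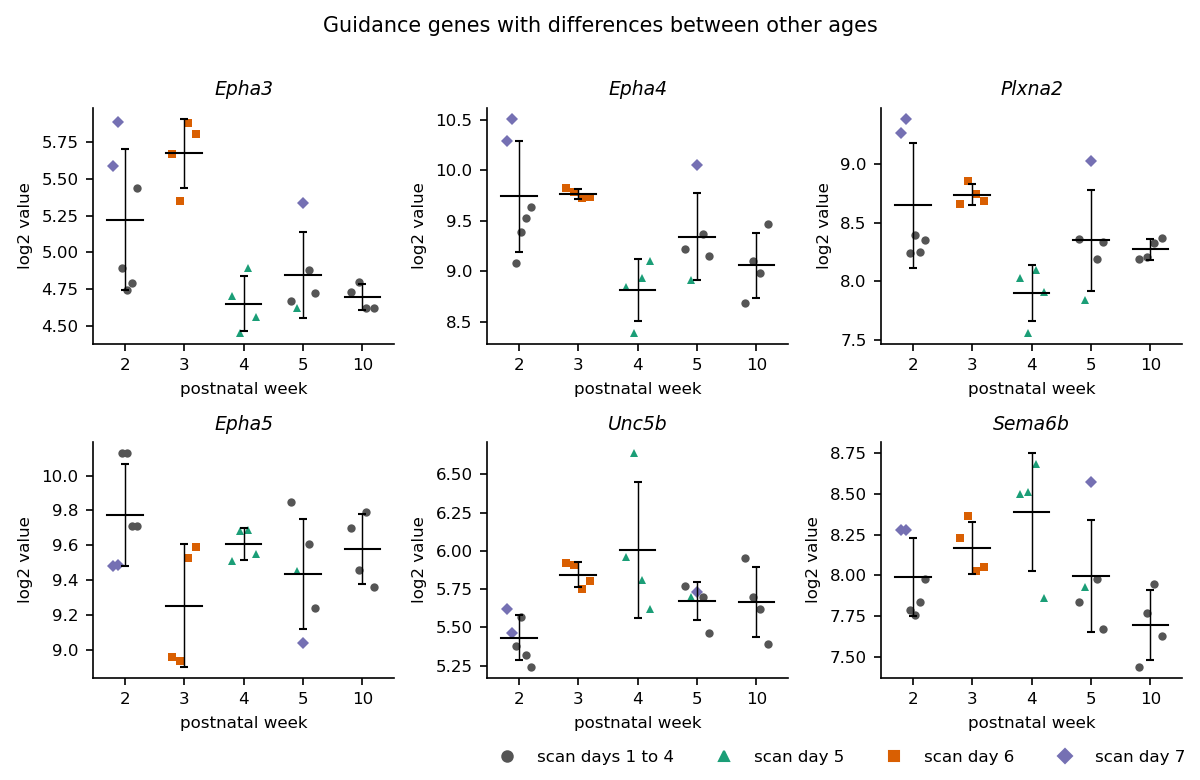
Log2 level of every animal, by postnatal week, for the genes called only in comparisons other than week 10 against week 2, with horizontal bars at the age means, error bars of 1 SD and marker shapes for the scan day. Epha3, Epha4 and Plxna2 are lower at week 4 than at week 3 and include week 2 and week 5 animals well above the rest of their age.

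At week 5 against week 4, 1 gene passed, 2.04% against a background of 0.0761%, or 7 of all genes, of which 6, or 0.0652%, were lower. It was Efnb3, which averaged 8.32 ± 0.37 over the week 5 animals (SD, n = 5) and 8.97 ± 0.34 over those of week 4 (SD, n = 4). Its change was -0.82 (SE 0.15), 1.77-fold lower (adjusted p = 0.0402), while the ages overlapped. On scan day 5, which held 1 week 5 animal and all week 4 animals, the difference was -0.09. The lowest Efnb3 levels of week 5, 7.93 and 8.12, were in animals 7 and 2 of batch 1, which also had the lowest striatal sums. The part of striatal tissue in the change was not tested. Without week 4 animal 2 none of the 49 genes passed, and the same held in 14 of the 23 fits that left out 1 array. Over all probe sets 3 were called without that animal, against 12 with it.

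At week 10 against week 5 none of the 49 genes passed (limma), none had an unadjusted p under 0.05 either, and the backgrounds were 0.0435% by the adjusted and 5.52% by the unadjusted p. The fitted changes of the genes called at week 10 against week 2 varied in size over this step. They were 0.07 (SE 0.08) for Epha7 and -0.14 (SE 0.13) for Plxnd1. For Efnb2 and Sema4d they were -0.22 and -0.27, against -0.39 and -0.70 at week 10 against week 2. That of Sema5a was -0.68 (SE 0.33, adjusted p = 0.933). The lack of calls does not show that the changes were over by week 5.

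Over all 5 ages 14 of the 49 genes differed by the F-test of limma, 28.6% against 31% of all genes. Sema6b, a transmembrane semaphorin for A-class plexins, was called by this test alone (adjusted p = 0.00863). It averaged 7.99 ± 0.24 (SD, n = 6) at week 2, 8.17 ± 0.16 (SD, n = 4) at week 3, 8.39 ± 0.36 (SD, n = 4) at week 4, 8.0 ± 0.34 (SD, n = 5) at week 5 and, at week 10, 7.70 ± 0.21 (SD, n = 4). Its highest age mean was at week 4, and no pair of neighbouring ages passed. On scan day 7 its week 2 animals gave 8.28 and 8.28, against 7.76 to 7.98 on the other days. These day 7 animals were those of batch 2, and the rest of week 2 were of batch 1.

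Weeks 5 and 2 were the only ages in both batches. In batch 1, with 3 animals of week 5 and 4 of week 2, 4 genes passed, 8.16% against a background of 10.4%. They were Plxnb3, with -1.13 (SE 0.26, adjusted p = 0.00914), Efnb3, with -0.86 (SE 0.16, adjusted p = 0.00246), Sema4d, with -0.63 (SE 0.16, adjusted p = 0.0159), and Epha7, with 0.41 (SE 0.08, adjusted p = 0.00421). In batch 2, with 2 animals of each age, the changes of these genes were -0.31, -0.54, -0.10 and 0.22, and none passed. The genes called in batch 2 were Plxna2 with -0.90, Epha3 with -0.76 and Epha4 with -0.92, that is 3 genes, 6.12% against 10.8% of all genes. There both week 2 animals and 1 of the 2 week 5 animals were scanned on day 7. The striatal sums of the week 5 animals were 10.20, 10.18 and 12.76 in batch 1 and 13.08 and 12.64 in batch 2. The difference between the batches itself passed for none of the 49 genes (limma, background 1.73%), and 4 had an unadjusted p under 0.05, 8.16% against 15.6% of all genes.

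**Figure D4:**
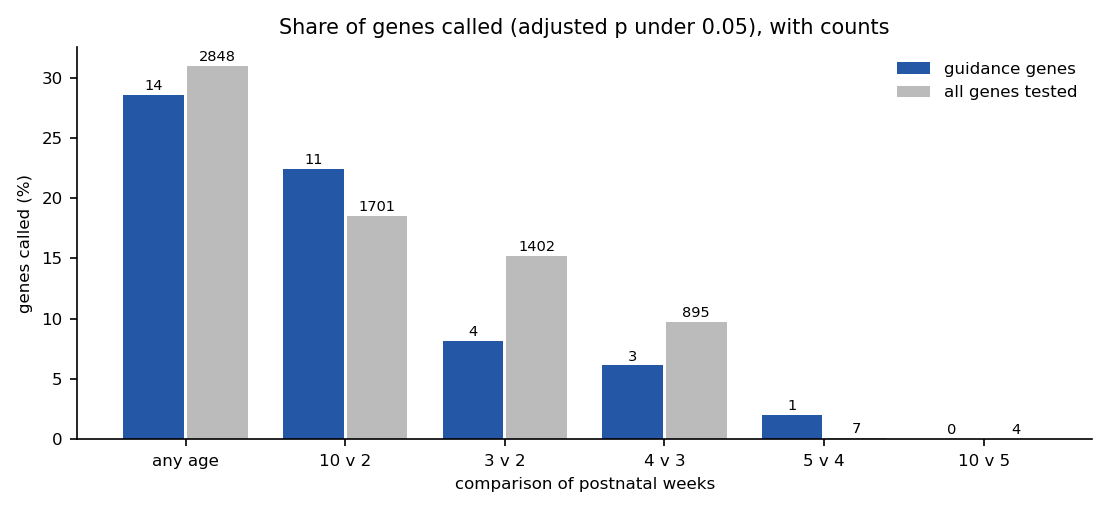
Share of the 49 guidance genes and of all 9197 genes called in each comparison, in percent. The 2 shares at week 10 against week 2 are 22.4% and 18.5%, and at week 3 against week 2 they are 8.16% and 15.2%.

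In all, 17 of the 49 genes were called in one of the 5 age comparisons or by the F-test, and 32 were called in none of these by the probe set that represents them. Of the semaphorins not called, Sema5b had the widest range of age means, from 6.22 to 6.80, and Sema3a, Sema3b, Sema3c, Sema3e, Sema3f, Sema4a, Sema4b, Sema4f, Sema6a, Sema6d and Sema7a had ranges between 0.12 and 0.37. The co-receptors Nrp1 and Nrp2 ranged over 0.37 and 0.44, and the plexins Plxna3, Plxnb2 and Plxnc1 over 0.09, 0.27 and 0.41. For Plxnc1, the receptor of Sema7a, the probe sets disagreed: the representative had 0.23 at week 10 against week 2, and the other 3 had -0.63, -0.24 and -0.13, none of them called. Of these other probe sets, 1 was called at week 3 against week 2, with -0.56 (adjusted p = 0.0385), and 1 with a mean of 3.87 at week 4 against week 3, also with -0.56 (adjusted p = 0.0196). A second Sema4a probe set was called at week 4 against week 3, with 0.64 (adjusted p = 0.00394), where the representative had 0.18. The ephrins Efna1, Efna3 and Efnb1 ranged over 0.17 to 0.28. The Eph receptors Epha2, Epha6, Epha8 and Ephb6, the last with an inactive kinase, ranged over 0.05 to 0.28. Slit2, Slit3 and Robo4 ranged over 0.26, 0.12 and 0.26, Ntn1, Ntng1 and Unc5c over 0.26, 0.31 and 0.39, and Slitrk1 and Unc50 over 0.33 and 0.14.

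The filter left out 12 genes of the families: Sema6c, Plxna1, Efna2, Efna4, Efna5, Epha1, Ephb4, Slit1, Robo3, Ntn3, Ntn4 and Ntng2. Just inside it stood Sema3f, at least 4 on 7 arrays with a mean of 4.00, and just outside stood Ntn4, at least 4 on 1 array with a mean of 3.54. Slit1 followed with age means of 3.56 to 3.72. A low value on these arrays can come from the probe set, so it does not show that the gene is off.

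Other genes of guidance signalling were taken from lists of cytoskeletal effectors, kinases and adaptors, and co-receptors and other cues. The lists were chosen with earlier results of these data known, and no set test was run. At week 10 against week 2 the background was 11.4% of all genes lower and 7.12% higher, with a median change of 0.01. Of 18 listed cytoskeletal effectors 15 were measured, and at week 10 against week 2, 9 were lower and 1 higher, with a median change of -0.42. Those that fell most were the collapsin response mediator proteins, which bind tubulin and act downstream of Sema3a: Dpysl3 with -2.27 (SE 0.31, adjusted p = 2.66e-05), Dpysl5 with -1.89 (SE 0.27), Dpysl4 with -1.31 (SE 0.13) and Crmp1 with -1.10 (SE 0.16). Tubb3, also among the 9, is on the immature neuron marker list as well. The effector that was higher, named after its value was seen, was Cap2, an actin-binding protein, with 0.44 (SE 0.11).

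For the next 2 lists the background at week 10 against week 2 is the same, 11.4% of all genes lower and 7.12% higher. Of 28 kinases and adaptors 21 were measured, with a median change of -0.05. Among these 2 were lower, Fyn, a Src-family kinase, with -0.80 (SE 0.11), and Cdk5r1, the activator of Cdk5, with -0.26 (SE 0.09). Of 25 co-receptors and other cues 14 were measured, with a median change of -0.21. Among these 2 were lower, L1cam, an adhesion molecule that partners Nrp1, with -0.72 (SE 0.14), and Itgb1, an integrin chain bound by Sema7a, with -0.54 (SE 0.08). At week 3 against week 2, 5 effectors were lower, 3 kinases and adaptors were higher, and 1 of the co-receptors and cues was higher. At week 4 against week 3, 1 effector was lower, 1 kinase or adaptor was higher and 3 were lower, and 3 of the co-receptors and cues were lower. The shares of all genes called in either direction in these 2 comparisons were 15.2% and 9.73%. Over both later steps no gene of these lists passed, against backgrounds of 0.0761% and 0.0435%.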

How the data were processed

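RNA of 23 prefrontal cortex samples was measured, 1 array each, and 1 column of the deposited table belonged to each array. The values were log2 units made by the authors with GCRMA, a method of background correction and quantile normalisation, per the submitters' processing notes, and its version is not given in the sources used here. They were used as deposited. Age and batch were read from the sample titles, and scan day and chip lot from the scanner records. The title of week 2 animal 5 gave batch 1 and its description batch 2; the title was followed. Animal number 2 of week 5 occurs in both batches and was counted as 2 animals.

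A probe set was tested when it reached log2 4 on at least 4 arrays, which kept 16103 of 22690 (71.2% of those that were not among the 64 controls). Symbols came from the platform annotation: 20393 probe sets had 1 symbol, 691 several and 1606 none, and 20364 were matched by gene identifier to RefSeq. The families took in 103 probe sets of 61 genes. Of the 49 genes kept, 16 had several tested probe sets.

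A linear model with 5 age means and a batch term was fitted to the 23 arrays, and two-sided moderated tests were taken from lmFit and eBayes of limma 3.58.1, run in R 4.3.3. Benjamini-Hochberg adjustment ran over the 16103 probe sets, and called means an adjusted p under 0.05. The batch difference used a mean per age and batch. The procedure was checked on simulated data with independent noise and no scan day or batch effect, so the check does not bear on scan day. The p-values measure the spread between animals.

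The members, lists and tests were chosen with earlier results of these data known. Every animal (for week 2 the lowest, median and highest) is given for genes called at week 10 against week 2 and, for each other comparison, for up to 4 further called genes with the largest change. Genes called by the F-test alone are named with their age means, and uncalled ones with the range of theirs. Each list of other guidance genes gives the called members that changed most, at most 4. One further list of signalling genes is not reported here. Alternatives covered the batch and scan day terms, the label of week 2 animal 5, array weights and other limma settings, the filter, normalisation, the actin difference, the probe set of a gene, the animal number and each array left out. Promoters were matched by symbol in the RefSeq table on GRCm38.p6.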

Additional observations from a re-analysis of the deposited data

Results flagged for a closer look

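For the 17 genes called in a comparison or by the F-test, 85 sets of animals of 1 gene at 1 age were examined for an animal far from the others, and 8 held one. Chance gives about 1 in 20. Among the week 2 animals, animal 5 of batch 1 had 6.63 for Sema5a where the others lay between 5.44 and 5.85, animal 6 had 7.72 for Robo1 where the others lay between 8.35 and 8.72, and animal 3 had 8.18 for Epha7 where the others lay between 7.93 and 8.02. Week 4 animal 2, whose array had the high pituitary sum, had 8.24 for Sema4g, with the others between 7.42 and 7.53. Week 4 animal 3 had 7.23 for Ephb3, with the others between 6.89 and 6.95. The Unc5b level of week 5 animal 8 was 5.46, with the others between 5.70 and 5.77. At week 10, Sema4g was 7.23 in animal 7, with the others between 7.42 and 7.46, and Dcc was 4.80 in animal 8, with the others between 4.95 and 4.96.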

How the results depend on the processing

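Of the 11 genes called at week 10 against week 2, 7 passed with week 2 animal 5 in batch 2, 6 with a random block of scan day beside batch, and none with a fixed scan day term and no week 3 arrays, under which 2 other genes were called, Epha3 and Sema6d. Over all probe sets the count was 2748 in the fit with age and batch, and 2247, 2388 and 1523 in these settings in turn. At week 3 against week 2, where 4 genes were called, 2 of them passed with animal 5 in batch 2, with a second quantile normalisation and with no batch term, 1 at log2 6 or more on 4 arrays, where Epha5 was the only one tested, and 0 with a random block of scan day, in place of batch or beside it. With scan days 6 and 7 as 1 term none of the 4 passed and 2 other genes were called, Epha4 and Plxna2. These genes called elsewhere were named after their values were seen. Over all probe sets, week 3 against week 2 had 2570 calls in the fit with age and batch. The count was 2225 with animal 5 in batch 2, 2349 with a second quantile normalisation and 1805 with no batch term. It was 2465 at log2 6 or more, and 597 and 112 with the scan day block beside and in place of batch. With scan days 6 and 7 as 1 term it was 1158. The 3 genes of week 4 against week 3 came to 0 with either scan day block, with the actin covariate and with scan days 6 and 7 as 1 term. Over all probe sets the 1839 calls came to 191 with the block beside batch and 1 with it in place of batch. They came to 0 with the actin covariate and 2 with scan days 6 and 7 as 1 term. That term turned the direction of Epha4 (0.01), Plxna2 (0.11) and, at week 3 against week 2, Epha3 (-0.02). The 1 gene of week 5 against week 4 came to 3 with array weights, 2 without batch 2, and 0 with animal 5 in batch 2, each scan day term, no batch term, no filter, the actin or the striatal covariate, or without scan day 1. Over all probe sets 12 were called in the fit with age and batch, 835 with array weights and 369 without batch 2. In the settings that gave 0 genes, 0 to 20 probe sets were called. The F-test count of 14 was 21 with array weights, 9 without batch 2 and 3 with either scan day block. Over all probe sets the F-test count of 5085 was 7256 with array weights and 4774 without batch 2. It was 2199 with the block beside batch and 1811 with it in place of batch. The cause was not tested in any of these.

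The 23 fits that each left out 1 array gave 7 to 12 genes at week 10 against week 2 (7 without week 2 animal 3 and without week 10 animals 6 or 8), 2 to 5 at week 3 against week 2 (2 without week 2 animals 3 or 5 and without any 1 week 3 animal), 3 throughout at week 4 against week 3, 0 to 3 at week 5 against week 4, 8 to 16 by the F-test (8 without week 2 animal 5), and 0 to 2 for the difference between batches (2 without week 5 animal 4). At week 10 against week 5 the count was 0 in all of these and in all 18 alternatives. Over all probe sets the 23 fits gave 2188 to 2822 calls at week 10 against week 2. At week 3 against week 2 they gave 1782 to 3001, and at week 4 against week 3, 1219 to 2115. At week 5 against week 4 they gave 2 to 303, by the F-test 4272 to 5499, and for the batch difference 40 to 822. Sema4d, Robo1, Plxnd1, Sema5a and Epha7 were called at week 10 against week 2 in all 23, and none of them under the fixed scan day term. The alternatives that drop or replace the batch term give no value for the batch difference, and the fixed scan day term none for week 3 or the F-test.

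Over 25 pairs with the same animal number the correlations of deviations from the means of each age and batch ran from -0.32 to 0.35. Their median was 0.02, and 8 were over 0.1. Of 23 arrays, 2 correlated best with an array of their own number. With few arrays per age and batch, the correlations cannot show whether the numbers pair the samples. In batch 2, with 2 arrays at each of its ages, the deviations of the 2 arrays mirror each other. With the animal number as a replicate block 6 genes were called at week 10 against week 2, 3 at week 3 against week 2, 0 at week 5 against week 4 and 4 by the F-test. Over all probe sets the counts in the same order were 2148, 2183, 3 and 3345, against 2748, 2570, 12 and 5085 without that block.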
